A study of Homo sapiens with 6 samples.

Results

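Estradiol (E2) acts through estrogen receptor alpha, a nuclear receptor that binds estrogen response elements in chromatin and raises or lowers the transcription of its target genes. ETV4 is an ETS-family transcription factor that is often abundant in endometrial cancer cells, and the receptor and ETS factors are known to occupy neighbouring sites. In the endometrium E2 is known for driving epithelial growth and for inducing the progesterone receptor. The question addressed here is the difference between 2 effects: the E2-over-vehicle log2 ratio of each ETV4 knockout clone minus that of the parental line.

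Poly(A) RNA was sequenced from Ishikawa cells, an endometrial adenocarcinoma line, kept in hormone-depleted medium before treatment. The 6 libraries were the parental line, ETV4 knockout clone 1 and ETV4 knockout clone 2, each given 0.1% DMSO as vehicle or 10 nM E2. The protocol text gives 8 h of treatment and the sample attributes give 1 h, and this difference could not be settled. There was 1 library per line and treatment, so the parental effect had no replicate, and each knockout line was 1 clone, so the knockout and the history of a clone cannot be told apart. All 6 libraries entered every difference. Of 26364 genes in the count table, 15611 had enough counts to be tested and 12367 had a mean of at least 2 CPM (counts relative to the TMM-scaled library size), the level asked for below.

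Library totals were 28037392 to 36829479 counts. The parental vehicle library stood apart: its TMM factor was 0.899 against 1.008 to 1.045 in the other 5, it had 17755 genes with a count against 18119 to 18658, and cytosolic ribosomal protein genes took 10.3% of its counts against 5.997% to 7.99%. It is the only parental vehicle library, so no difference here can be computed without it, and both clone-minus-parental differences share it. ETV4 itself was at 19.7 CPM in parental vehicle and 28.4 CPM in parental E2. It was at 3.41 and 2.95 CPM in clone 1 and at 2.43 and 2.77 CPM in clone 2, so every knockout library was below both parental libraries. ESR1, the receptor gene, was at 199 and 154 CPM in parental cells, 276 and 203 CPM in clone 1 and 246 and 149 CPM in clone 2, in vehicle and E2 order. Neither gene's difference passed the tests described below. All 8 epithelial markers were measured, with a sum of 2210 to 3190 CPM per library that was lower under E2 in each of the 3 lines. Of the other cell types, 3 of 8 stromal, 1 of 5 endothelial and 1 of 6 immune markers reached 2 CPM, with sums of 50.9 to 89.4, 1.68 to 4.58 and 3.23 to 5.69 CPM, and CD3E was at 0 in every library.

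A gene was called 2-fold changed by E2 in the parental line when its log2 ratio was at least 1 in size, with a prior count of 2. It was called lost when both clones moved by less than 0.5 log2 in the parental direction, a move the opposite way included, and kept when both clones moved at least 2-fold in the parental direction. The remainder was called partly kept. In it at least 1 clone moved by 0.5 log2 or more in the parental direction, while the other could move less or the opposite way. A gained gene moved at least 2-fold the same way in both clones and by under 0.5 in that direction in the parental line. These classes come from the same 6 libraries as the differences, so their sizes and medians are a description. In bulk RNA, fewer cells of a type and less RNA per cell cannot be told apart.

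Most of the 1423 genes that differed 2-fold with E2 in the parental line moved less in both clones (1326 genes), as did 8569 of all 12367 genes (69.3%), and a small set with larger parental effects was kept. Of the 945 higher under E2, 124 were kept (1% of the 12367 genes), 219 were lost (1.77%) and 602 were partly kept (4.87%). Of the 478 lower under E2, 27 were kept (0.218%), 250 were lost (2.02%) and 201 were partly kept (1.63%). Only 6 genes were gained (0.0485%), 4 higher and 2 lower. The kept genes that were higher under E2 had median log2 ratios of 2.34 in parental cells, 1.62 in clone 1 and 1.97 in clone 2. The lost ones started from smaller parental effects, with medians of 1.16, 0.38 and 0.16. Over all 12367 genes the medians were -0.04, -0.01 and 0.01. The 1423 genes were chosen by a parental ratio without a replicate. Leaving out clone 1 gave 830 lost, 208 kept and 53 gained genes, and leaving out clone 2 gave 540, 233 and 19, while removing trends in GC content and length gave 189 lost genes.

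**Figure D1:**
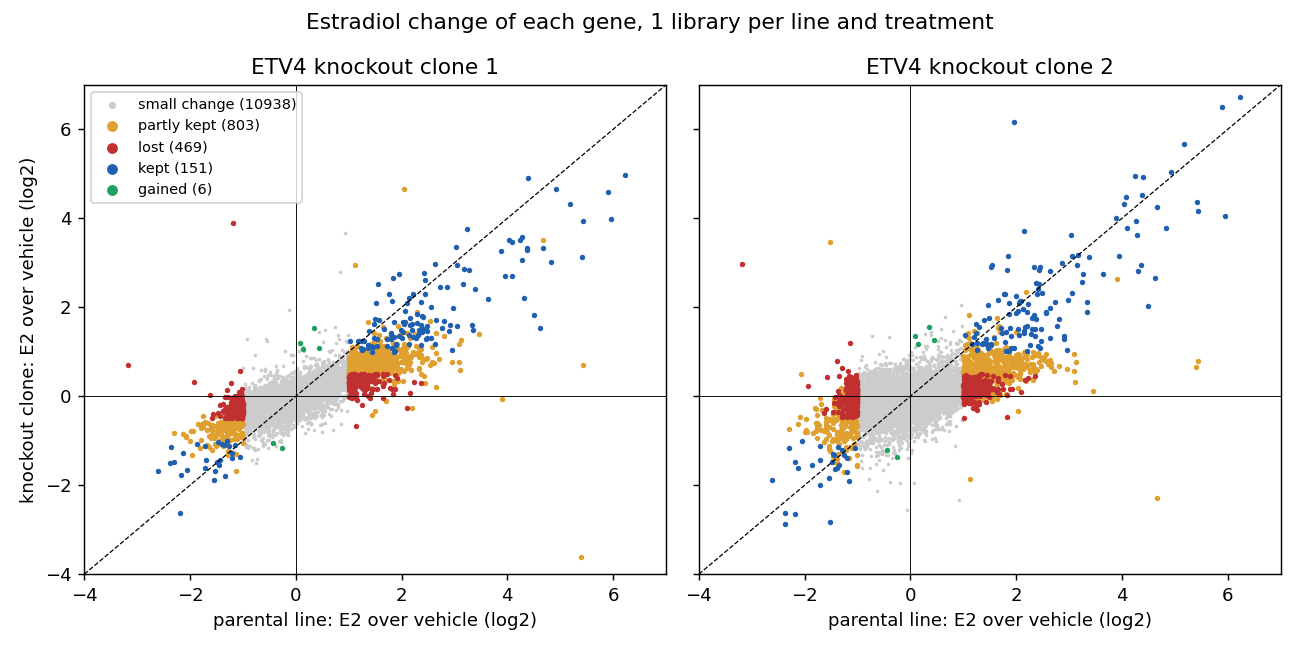
Each point is 1 of 12367 genes, with the parental E2-over-vehicle log2 ratio on the x axis and that of clone 1 (left) or clone 2 (right) on the y axis. The dashed line marks equal effects, and colours mark the 151 kept, 469 lost, 803 partly kept and 6 gained genes, which are defined by these same values. By their medians kept genes lie nearer to the dashed line than lost genes. Of the 124 kept genes higher under E2, 78 moved less in both clones and so lie below it. Most coloured points lie closer to the horizontal zero line than the dashed line does.

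The test of the difference itself was edgeR's quasi-likelihood test of the treatment-by-genotype interaction, adjusted over all 15611 genes by Benjamini-Hochberg. Without a replicate block it called 0% of genes, with 1190 genes at an unadjusted p under 0.05, and DESeq2 on the same model called 26 genes. The labels number the clones, so each clone's vehicle and E2 libraries form a pair. With the line as a block, 2470 genes passed (15.8%), 1390 with a higher E2 ratio in the clones (8.9%) and 1080 with a lower one (6.92%). Of the 12367 genes at 2 CPM or more, 18.86% passed, 1359 as higher and 974 as lower. List counts below are of genes at 2 CPM or more, whereas the shares set beside them are over all 15611 genes and so are somewhat lower. The blocked fit has 1 residual degree of freedom and rests on the spread shared across genes. Its SEs and adjusted p-values, those given below, therefore reflect little of how far the 2 clones differed in a single gene. RPL39, with clone-minus-parental differences of 3.87 in clone 1 and 6.14 in clone 2, had an SE of 0.277. These p-values also carry no estimate of the spread between parental cultures. A gene described below as passing passed the blocked test, and no gene passed the unblocked edgeR test. A second blocked fit, with each library's trend in GC content and length removed, called 875 genes, 460 as higher in the clones (2.95%) and 415 as lower (2.66%), and 682 of them were among the 2470. Of 80 genes named in the text, 55 passed the first blocked fit and 37 passed both. Lost, gained and list genes were mostly named by the size of this difference, so their p-values are a description.

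Estrogen-induced genes that moved 2-fold in the parental line moved by at least 0.5 log2 in the same direction in at least 1 clone, with 1 exception. Of 39 in the file 24 reached 2 CPM, and their median E2 ratio was 0.97 in parental cells, 0.45 in clone 1 and 0.50 in clone 2. Among these, 7 were kept, 4 partly kept and 1 lost, and 5 passed as lower in the clones, beside 6.92% of all tested genes, while none passed as higher. A single member passed as lower with the trends removed, beside 2.66% of all tested genes. PGR, the progesterone receptor, went from 1.61 to 34.8 CPM in parental cells, from 7.31 to 71.5 CPM in clone 1 and from 2.66 to 62.7 CPM in clone 2. The E2 libraries of all 3 lines were above all vehicle libraries, and the difference of -0.61 log2 ± 0.30 (SE) did not pass (adjusted p = 0.144). GREB1, a chromatin-bound cofactor of the receptor, went from 5.14 to 50.1 CPM in parental cells, from 8.26 to 59.95 CPM in clone 1 and from 9.84 to 66.2 CPM in clone 2. Its difference of -0.48 ± 0.24 did not pass either (adjusted p = 0.164). The other kept members, named after their values were seen, were CA12, EGR3, SLC7A5, RAPGEFL1 and ABCA3. CA12, a carbonic anhydrase, had ratios of 3.16 in parental cells, 2.52 in clone 1 and 2.95 in clone 2.

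The list members that differed most between clones and parental line were PDZK1, CELSR2, RAPGEFL1 and STC2. PDZK1, a scaffold protein, went from 0.672 to 2.99 CPM in parental cells, from 5.55 to 9.63 CPM in clone 1 and from 2.83 to 4.75 CPM in clone 2. Vehicle levels of both clones were above the parental vehicle level, and the interaction was -1.38 ± 0.43 (adjusted p = 0.0153). CELSR2, an atypical cadherin, was lost: 98.7 to 240 CPM in parental cells, 145 to 201 CPM in clone 1 and 244 to 260 CPM in clone 2 (adjusted p = 0.00233). Its clone 1 ratio of 0.475 lay near the limit of 0.5. RAPGEFL1 kept a response of 1.72 and 1.98 in the clones against 2.64 in parental cells, and that difference passed (adjusted p = 0.00972). STC2, a secreted glycoprotein, had ratios of 1.21 in parental cells, 0.68 in clone 1 and 0.27 in clone 2 (adjusted p = 0.0106). PDZK1 also passed with the trends removed (adjusted p = 0.0221), whereas CELSR2, RAPGEFL1 and STC2 did not (adjusted p = 0.2, 0.178 and 0.0851).

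**Figure D2:**
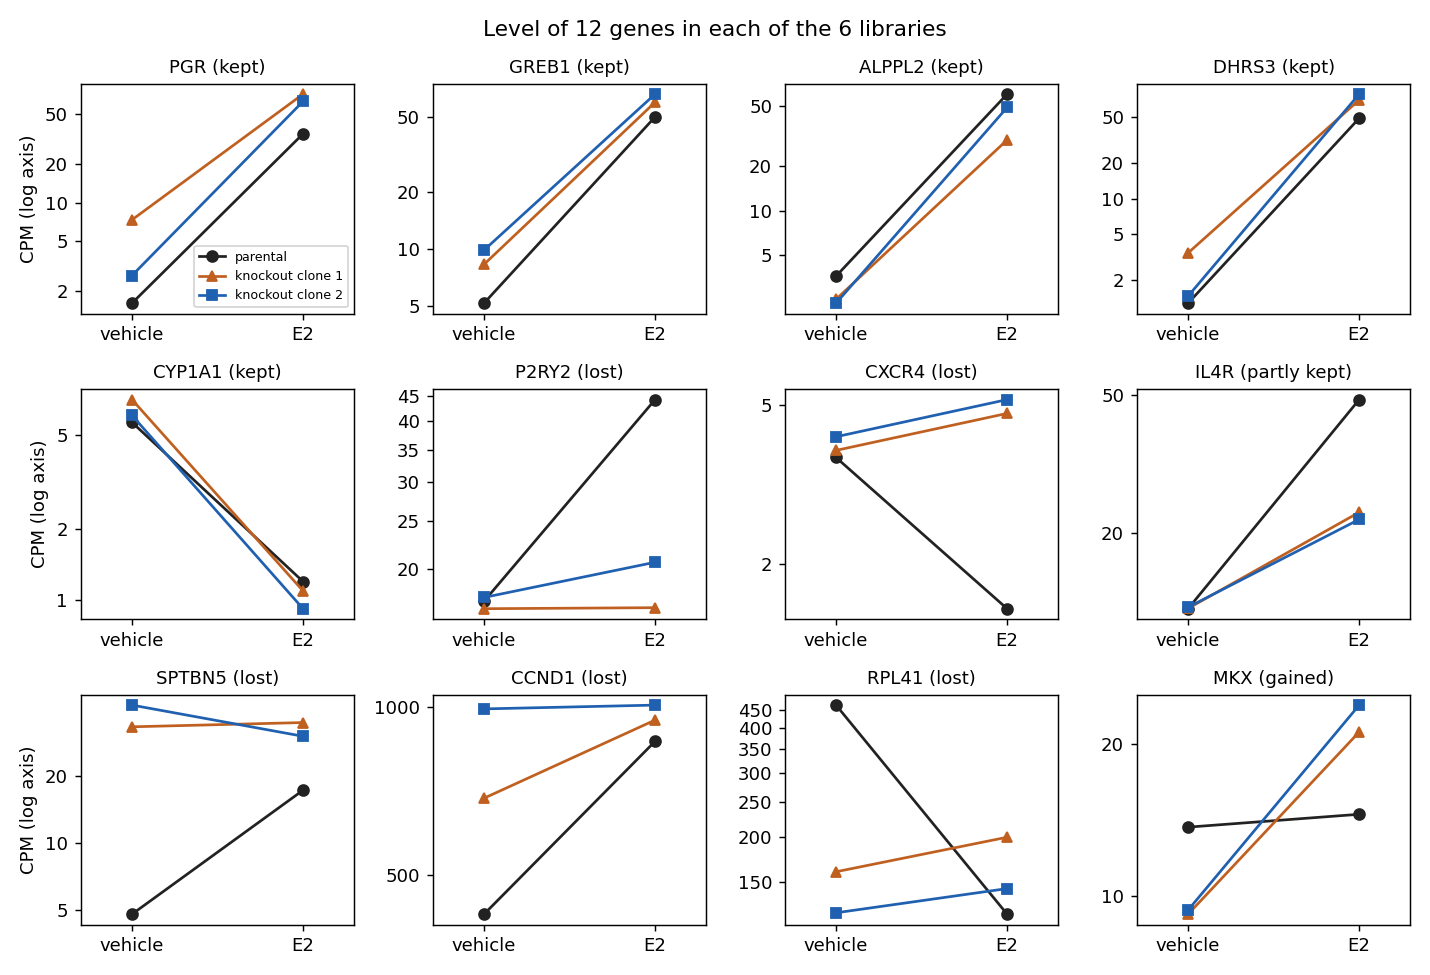
Levels in CPM on a log axis of 12 genes in vehicle and E2, with 1 line per cell line and 1 point per library. PGR, GREB1, ALPPL2, DHRS3 and CYP1A1 move in the same direction in the 3 lines, by amounts that differ between lines. P2RY2, CXCR4 and IL4R separate only under E2, and SPTBN5, CCND1 and RPL41 lie further apart in vehicle than under E2.

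The kept genes ranked first by the smallest of their 3 changes were ALPI, IQSEC3, ALPP, ANPEP, DHRS3 and CACNA1I. Alkaline phosphatase activity is the standard readout of estrogen action in Ishikawa cells, and 3 of 3 measured phosphatase genes were kept. ALPPL2, the germ-cell phosphatase gene, went from 3.63 to 60.4 CPM in parental cells, from 2.54 to 29.8 CPM in clone 1 and from 2.39 to 49.2 CPM in clone 2. ALPP, the placental form, went from 0.202 to 15.7, from 0.251 to 7.54 and from 0.171 to 21.1 CPM in the same order. These paralogs are near-identical in sequence, so reads may be shared between them. The clones lay on either side of the parental effect: the ALPI ratio was 6.23 in parental cells, 4.96 in clone 1 and 6.73 in clone 2. DHRS3, a retinal reductase, went from 1.28 to 48.6 CPM in parental cells, from 3.43 to 69.8 CPM in clone 1 and from 1.47 to 78.2 CPM in clone 2. ANPEP, aminopeptidase N, had ratios of 4.39, 4.90 and 4.94.

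The promoter of ALPI is shown as that of the kept gene ranked first in this way, and that of ADAMTS13 as that of the lost gene with the largest difference, both among genes higher under E2. They are RefSeq promoters of GRCh38.p14, 300 bases from 250 before to 50 after the start, at chr2:232455903-232456202 and chr9:133422117-133422416, both on the plus strand, 5′ to 3′. Capitals mark every match, on either strand, to GGTCA, the core of the estrogen response element.
ALPI: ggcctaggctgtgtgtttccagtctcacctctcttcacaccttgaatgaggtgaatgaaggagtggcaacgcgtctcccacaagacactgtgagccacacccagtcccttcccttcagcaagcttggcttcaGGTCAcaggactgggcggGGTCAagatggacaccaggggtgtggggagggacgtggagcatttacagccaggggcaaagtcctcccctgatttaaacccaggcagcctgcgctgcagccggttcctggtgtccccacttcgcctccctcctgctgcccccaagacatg
ADAMTS13: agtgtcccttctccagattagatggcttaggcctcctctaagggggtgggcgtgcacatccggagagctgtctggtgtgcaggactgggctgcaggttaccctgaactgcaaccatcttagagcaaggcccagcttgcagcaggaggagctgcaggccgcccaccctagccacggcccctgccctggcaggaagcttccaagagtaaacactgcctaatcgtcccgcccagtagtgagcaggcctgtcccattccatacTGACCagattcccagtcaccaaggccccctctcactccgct
The ALPI window holds 2 matches and the ADAMTS13 window 1. The letter patterns searched, on both strands, were the full estrogen response element (the core and its reverse complement spaced by 3 bases), its core GGTCA, which the full element contains, and the ETS pattern CCGGAAG. Promoters were matched by symbol for 9381 of the 12367 genes. The core was present in 36.1% of 108 promoters of kept genes higher under E2, 28.1% of 199 promoters of lost genes higher under E2, 36.6% of 279 promoters of lost genes lower under E2, and 37.4% of all 35116 promoters. The ETS pattern was present in 2.78%, 14.6%, 17.9% and 10.3% in the same order. Of the 13775 promoters of genes at 2 CPM or more, 34.2% held the core and 16.7% the ETS pattern. Of 39 promoters of kept genes lower under E2, 38.5% held the core and 2.56% the ETS pattern. The full element had no match in the kept or lost promoters. It matched 0.057% of all promoters and 0.0145% of those of genes at 2 CPM or more. These shares describe the windows and were not tested.

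Some genes were induced in all 3 lines with a smaller effect in the clones. Of the 124 kept genes higher under E2, 34 passed as lower in the clones and 2 as higher, beside 6.92% and 8.9% of all tested genes. Among all 945 genes 2-fold higher under E2 in the parental line, 600 passed as lower and 2 as higher. Passing as lower was thus less frequent among kept genes than in the set they come from. CACNA1I, a T-type calcium channel subunit, went from 0.403 to 28.97 CPM in parental cells, from 1.14 to 19.1 CPM in clone 1 and from 2.83 to 48.4 CPM in clone 2, an interaction of -2.07 ± 0.41 (adjusted p = 5.68e-05). MMP17, a membrane-anchored metalloprotease, went from 2.25 to 100.2 CPM, from 5.08 to 79.1 CPM and from 6.35 to 114 CPM in the same order (-1.41 ± 0.28, adjusted p = 5.76e-05). In both genes the vehicle levels of the clones exceeded the parental vehicle level, while the E2 levels of the clones lay on either side of the parental one. SLC6A6, the taurine transporter, and PLAT, tissue plasminogen activator, kept their size: 2.43, 2.77 and 2.52 for SLC6A6 and 2.22, 2.30 and 2.07 for PLAT in parental, clone 1 and clone 2 order. These 2 were chosen after their values were seen.

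Genes lower under E2 in all 3 lines included CYP1A1, LMO3, ADGRF1, FAM107A and BMF. None of the 27 passed the interaction test, beside 15.8% of all tested genes. The class asks for a 2-fold fall in every line and its median level was 4.93 CPM, so this does not show equal effects. CYP1A1, a cytochrome P450 that oxidises estrogens, went from 5.68 to 1.20 CPM in parental cells, from 7.09 to 1.10 CPM in clone 1 and from 6.08 to 0.923 CPM in clone 2. BMF, a pro-apoptotic BCL2-family member, went from 19.4 to 3.69 CPM, from 43.2 to 15.3 CPM and from 44.9 to 7.24 CPM. Its level was higher in the clones under both treatments. ADGRF1, an adhesion receptor, had ratios of -1.71, -1.62 and -1.997 and was lower in the clones under both treatments.

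Lost genes that were higher under E2 in the parental line had, by their median, a vehicle level that was higher in the clones and an E2 level that was similar in all lines. The 6 with the largest difference were ADAMTS13, SPTBN5, SLC16A8, SCNN1D, MMP25-AS1 and MYO15B, and all 6 passed. Of the 219 lost genes higher under E2, 198 passed. The ranking used the difference that the test addresses, so these p-values are a description. ADAMTS13, the protease that trims von Willebrand factor, went from 0.740 to 3.37 CPM in parental cells, from 2.74 to 2.26 CPM in clone 1 and from 3.45 to 3.69 CPM in clone 2 (-2.26 ± 0.44, adjusted p = 3.98e-05). SPTBN5, a beta-spectrin, went from 4.81 to 17.3 CPM, from 33.3 to 34.8 CPM and from 41.6 to 30.2 CPM (-2.05 ± 0.24, adjusted p = 5.7e-14). The 4 knockout libraries were above both parental libraries for SPTBN5. MMP25-AS1 is an antisense transcript, and since the strand setting of the counting is not given in the sources used here, its reads cannot be told from those of its partner. CCND1, cyclin D1, was also lost: 425 to 869 CPM in parental cells, 687 to 949 CPM in clone 1 and 994 to 1010 CPM in clone 2 (-0.79 ± 0.27, adjusted p = 0.0269). Its ratios of 1.03 in parental cells and 0.47 in clone 1 lay near the limits of 1 and 0.5.

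Over the 219 lost genes higher under E2, the clones exceeded the parental line by a median of 0.86 log2 in vehicle and differed from it by -0.06 under E2. Over the 250 lost genes lower under E2 the medians were -0.68 in vehicle and 0.34 under E2. The larger of the 2 differences was in vehicle for 402 of the 469 lost genes (85.7%), against 81.2% of the 1423 parental 2-fold genes and 71.8% of all 12367 genes. The classes were cut from the same parental libraries, so this split is a description. A group counted after the data were seen comprised parental 2-fold genes where the clones differed from the parental line by under 0.5 log2 on one side and at least 1.5-fold on the other: 397 genes differed in vehicle only and 20 under E2 only. These counts were 863 and 61 without clone 1, 533 and 122 without clone 2, and 234 and 12 with the trends removed.

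**Figure D3:**
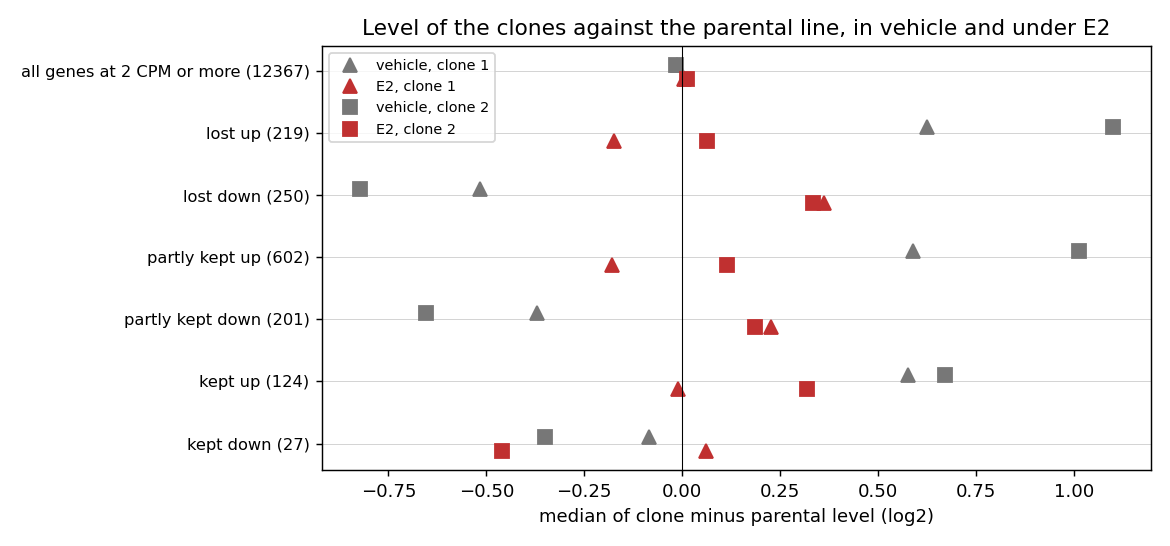
Medians over each class of the clone-minus-parental level on the log2 scale, in vehicle (grey) and under E2 (red), with triangles for clone 1 and squares for clone 2. For the lost and partly kept classes each clone lies further from 0 in vehicle than under E2, and over all 12367 genes both sides lie near 0.

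Some of the 20 genes that differed under E2 only are described here, named after their values were seen. They were chosen for this difference, so their p-values are a description. P2RY2, a receptor for extracellular ATP and UTP, was at 17.1 CPM in parental vehicle and 44.3 CPM in parental E2. It was at 16.6 and 16.6 CPM in clone 1 and at 17.5 and 20.6 CPM in clone 2. The 3 vehicle levels and both clone E2 levels lay together and the parental E2 library alone was high (-1.25 ± 0.22, adjusted p = 4.88e-06). IL4R, the interleukin 4 receptor, went from 12.1 to 48.6 CPM in parental cells, from 12.1 to 22.9 CPM in clone 1 and from 12.2 to 21.9 CPM in clone 2 (-1.12 ± 0.23, adjusted p = 7.41e-05). PIM1, a serine/threonine kinase, went from 6.32 to 52.8 CPM, from 6.11 to 18.3 CPM and from 6.83 to 34.6 CPM (adjusted p = 0.000316). CXCR4, the receptor for CXCL12, went the other way, from 3.70 to 1.55 CPM in parental cells, from 3.85 to 4.77 CPM in clone 1 and from 4.17 to 5.16 CPM in clone 2 (1.56 ± 0.38, adjusted p = 0.00121), and did not pass with the trends removed (adjusted p = 0.0804). SLC40A1, the iron exporter ferroportin, went from 31.6 to 12.9 CPM in parental cells, from 28.1 to 23.7 CPM in clone 1 and from 25.0 to 22.4 CPM in clone 2 (1.09 ± 0.22, adjusted p = 0.000102). PEG10, an imprinted retrotransposon-derived gene, and FZD5, a WNT receptor, had parental E2 levels of 1865 and 141 CPM, with clone E2 levels of 854 and 745 CPM for PEG10 and 77.9 and 93.9 CPM for FZD5.

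The vehicle-only genes were led by MFNG, RHBDL1, LTB4R and COL7A1, named after their values were seen. These too were chosen for their difference, which rests on the single parental vehicle library, so their p-values are a description. LTB4R, a leukotriene B4 receptor, went from 3.40 to 26.8 CPM in parental cells, from 14.1 to 24.0 CPM in clone 1 and from 21.6 to 32.9 CPM in clone 2 (-2.29 ± 0.25, adjusted p = 7.91e-17). COL7A1, type VII collagen, went from 3.36 to 29.8 CPM, from 11.1 to 26.6 CPM and from 15.3 to 26.2 CPM (-2.13 ± 0.25, adjusted p = 3.78e-14). In both genes parental vehicle was the lowest library and the vehicle levels of the clones lay between it and the E2 levels of the 3 lines. Of the 397 genes, 335 passed, and 294 were higher under E2 in the parental line.

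Ribosomal protein and respiratory chain genes had ratios below 0 in the parental line by their medians, under 2-fold for most, and medians nearer to 0 or above it in the clones. The 76 measured cytosolic ribosomal protein genes had median ratios of -0.78 in parental cells, -0.21 in clone 1 and 0.18 in clone 2. By the classes above 15 were lost and 2 partly kept, and 59 had a parental change under 2-fold. Of the 76, 44 passed as higher in the clones and none as lower, beside 8.9% of all tested genes that passed as higher, and 23 passed as higher with the trends removed, beside 2.95%. Their summed level was 114100 CPM in parental vehicle and 63800 CPM in parental E2, 79200 and 70250 CPM in clone 1 and 57420 and 62420 CPM in clone 2. Parental vehicle alone was high, and all 76 genes had the larger clone-minus-parental difference in vehicle. RPL41, a large-subunit protein, went from 464 to 122 CPM in parental cells, from 160 to 200 CPM in clone 1 and from 123 to 144 CPM in clone 2 (2.20 ± 0.26, adjusted p = 1.7e-14). RPS3A, a small-subunit protein, went from 3528 to 1389 CPM, from 1970 to 1946 CPM and from 1559 to 2136 CPM (1.56 ± 0.27, adjusted p = 3.11e-06). RPL26 went from 2230 to 1031 CPM, from 1100 to 1109 CPM and from 926 to 1248 CPM. RPL39 had a difference of 5.005 ± 0.28, but its clones moved by unlike amounts: 609 to 67.5 CPM in parental cells, 69.6 to 113 CPM in clone 1 and 43.7 to 343 CPM in clone 2. RPL39, RPS10 and the pseudogenes RPL13AP3 and RPSAP9, which also led the lost genes, have near-identical copies, so their counts are uncertain. CXCL14, a chemokine, and SPCS2, a signal peptidase subunit, were the other leading lost genes lower under E2: SPCS2 went from 106 to 43.4 CPM in parental cells, from 102 to 101 CPM in clone 1 and from 27.3 to 42.5 CPM in clone 2.

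Nuclear-encoded respiratory chain genes moved in the same way. Of 78, 3 were lost and 75 had a parental change under 2-fold. In all 48 passed as higher in the clones, beside 8.9% of all tested genes, and none as lower, with medians of -0.67 in parental cells, -0.12 in clone 1 and 0.26 in clone 2. COX7B, a cytochrome c oxidase subunit, went from 396 to 215 CPM in parental cells, from 200 to 231 CPM in clone 1 and from 205 to 286 CPM in clone 2 (1.23 ± 0.26, adjusted p = 0.000147). NDUFB5, a complex I subunit, went from 322 to 155 CPM, from 202 to 205 CPM and from 164 to 199 CPM (adjusted p = 0.000175). For the mitochondrial ribosomal protein genes, 35 of 75 passed as higher and none as lower, led by MRPL48 and MRPS15. For proteasome subunits, 11 of 33 passed as higher and none as lower: PSMA6 went from 348 to 186 CPM in parental cells, from 190 to 177 CPM in clone 1 and from 162 to 210 CPM in clone 2 (adjusted p = 0.00142). With the trends removed 16 respiratory chain, 11 mitochondrial ribosomal and 4 proteasome genes passed as higher, beside 2.95% of all genes. The median differences of the mitochondrial ribosomal and proteasome lists were 0.59 and 0.41, against -0.01 over all genes. In all 4 lists parental vehicle held the highest summed level. The 9 replication-dependent histone genes had medians of -0.60, -0.13 and -0.16, and 3 passed as higher, beside 8.9% of all tested genes. None of the 9 passed as higher with the trends removed, beside 2.95%.

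**Figure D4:**
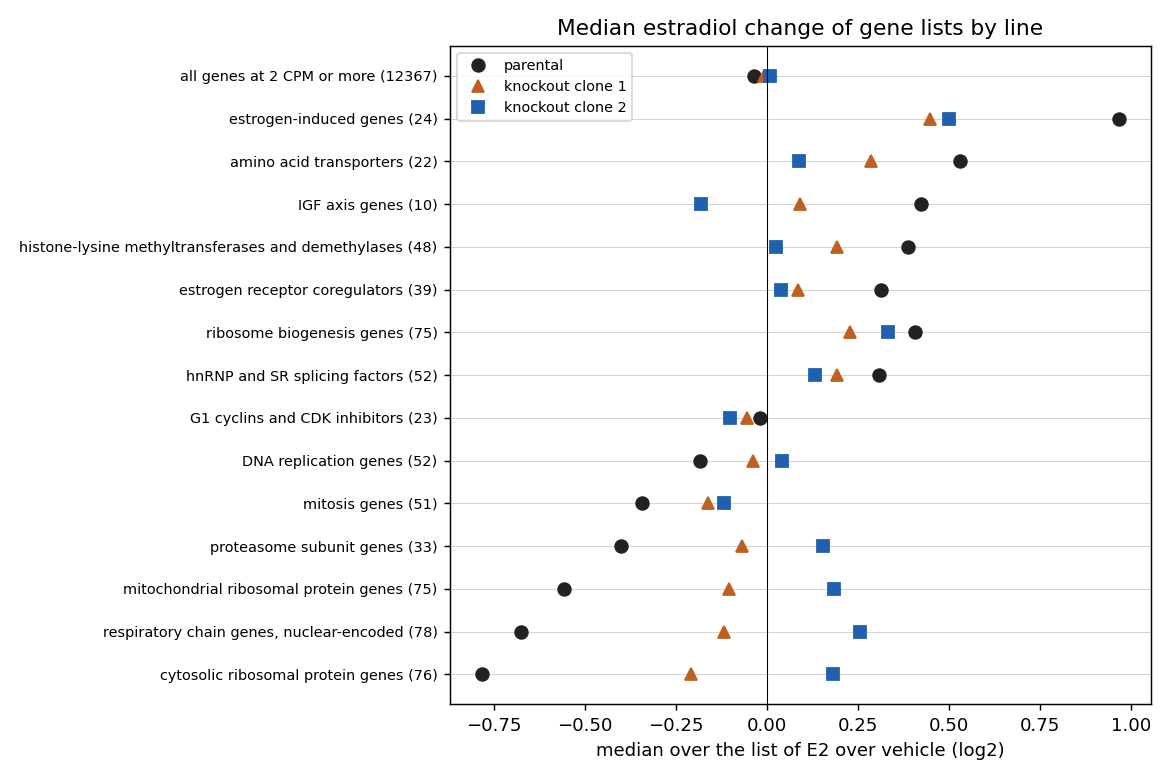
Median E2-over-vehicle log2 ratio of each gene list, with the number of measured genes in brackets, for the parental line (circles), clone 1 (triangles) and clone 2 (squares). In the ribosomal, respiratory chain and proteasome lists the parental median lies between -0.40 and -0.78 and both clones lie nearer to 0 or above it, while estrogen-induced genes stay above 0 in all 3 lines.

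The 48 measured histone-lysine methyltransferases and demethylases, whose transcripts had a median length of 6694 bases, had median E2 ratios of 0.39 in parental cells, 0.19 in clone 1 and 0.025 in clone 2. Of the 48, 2 were lost and 4 partly kept, 42 had a parental change under 2-fold, and 7 passed as lower in the clones, beside 6.92% of all genes. None of the 48 passed with the trends removed, where 2.95% of all tested genes passed as higher and 2.66% as lower. KMT2D, an H3K4 methyltransferase, went from 88.6 to 271 CPM in parental cells, from 147 to 234 CPM in clone 1 and from 241 to 327 CPM in clone 2 (-1.06 ± 0.26, adjusted p = 0.00118). KMT2B, SETD1B and DOT1L passed as lower too, with parental ratios of 1.502, 1.05 and 1.22. In the fit without the trends the adjusted p-values of these 4 genes were 0.162 for KMT2D, 0.172 for KMT2B, 0.229 for SETD1B and 0.37 for DOT1L. Among 39 estrogen receptor coregulators 5 passed as lower and 1 as higher, beside 6.92% and 8.9% of all genes. PPARGC1B, a coactivator, was kept with ratios of 2.31, 1.37 and 1.51, and SAFB2 and SAFB, a neighbouring pair of scaffold-attachment factors, also passed as lower. Without the trends SAFB2 and SAFB passed (adjusted p = 0.0193 and 0.0258) and PPARGC1B did not (adjusted p = 0.179). Of 10 insulin-like growth factor axis genes 3 passed as lower, beside 6.92% of all genes, among them IGF1R with ratios of 1.47, 0.65 and 0.31. None of the 10 passed with the trends removed, where IGF1R had an adjusted p of 0.0824.

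Of 52 DNA replication genes 11 passed as higher in the clones and 4 as lower, and of 51 mitosis genes 9 and 3, beside 8.9% and 6.92% of all genes. The lower counts were near that share. With the trends removed the counts were 3 and 1 for replication and 4 and 2 for mitosis, beside 2.95% and 2.66% of all genes. GMNN, the licensing inhibitor geminin, went from 182 to 103 CPM in parental cells, from 113 to 112 CPM in clone 1 and from 95.2 to 122 CPM in clone 2 (0.99 ± 0.25, adjusted p = 0.00157). POLE, the leading-strand polymerase, went the other way with ratios of 1.65, 0.79 and 0.52 (adjusted p = 0.00167), as did UHRF1 with 1.69, 1.01 and 0.47. HMMR and CDK1 were higher in the clones with differences of 0.98 and 0.84. UHRF1 and HMMR also passed without the trends (adjusted p = 0.0287 and 0.0408), whereas GMNN, POLE and CDK1 did not (adjusted p = 0.22, 0.0597 and 0.525). The median differences of these lists were 0.14 and 0.12 and turned to -0.05 and -0.06 when libraries were scaled by total counts, a scaling that moved the median of all genes from -0.01 to -0.20.

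The E2 ratios varied with the GC content and length of the transcripts, most of all in the parental line, where an effect of E2 and the make-up of the single vehicle library cannot be told apart. From the lowest to the highest quintile of GC content, the median parental E2 ratio went from -0.31 to 0.32, that of clone 1 from -0.04 to 0.08 and that of clone 2 from 0.05 to -0.004. From the shortest to the longest quintile it went from -0.45 to 0.28 in parental cells, from -0.13 to 0.11 in clone 1 and from 0.07 to -0.003 in clone 2. Lost genes higher under E2 had a median GC content of 58.7% and a median length of 4890 bases, and lost genes lower under E2 42.9% and 2131 bases, against 47.9% and 3744 bases over all genes. These values were not particular to lost genes. All parental 2-fold genes had 57.4% and 4604 bases when higher under E2, and 43.85% and 2356 bases when lower. With these trends removed and the line as block, P2RY2 (-1.18), IL4R (-0.91), SPTBN5 (-1.32), RPL41 (1.45) and MKX (1.04) were among the 37 named genes that still passed, with adjusted p-values of 0.0017, 0.00741, 0.00143, 0.000764 and 0.00735. The other 18 of the 55 did not. They were those so described beside their lists, CXCR4, the pseudogene RPSAP9 (adjusted p = 0.154) and FZD5 (adjusted p = 0.0558).

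**Figure D5:**
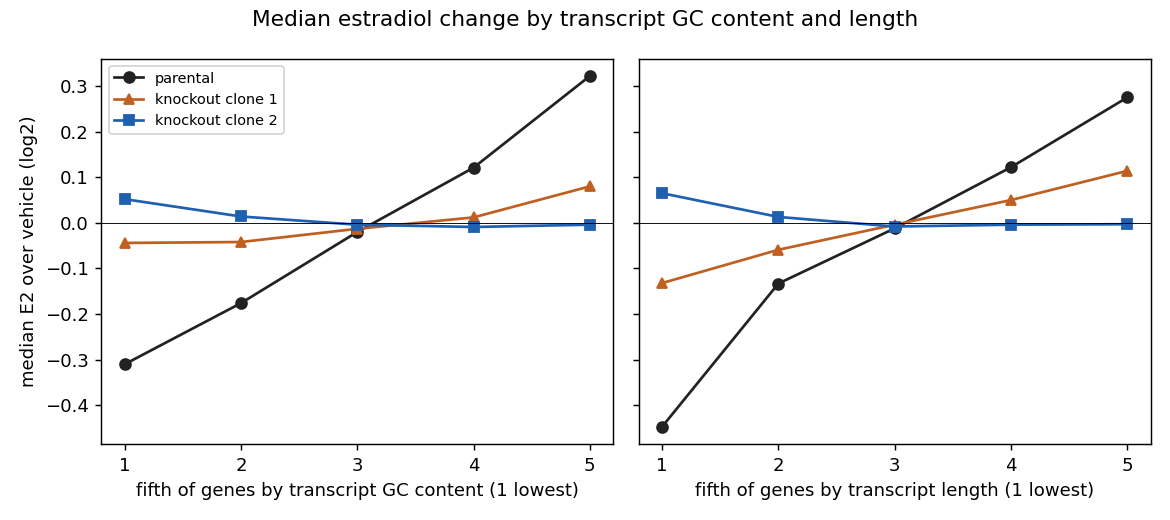
Median E2-over-vehicle log2 ratio over quintiles of genes ordered by transcript GC content (left) and length (right), for the 3 lines. The parental medians climb from -0.31 to 0.32 and from -0.45 to 0.28, and those of the clones stay between -0.13 and 0.11.

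Gains were few. MKX, the homeobox factor Mohawk, was at 13.7 and 14.5 CPM in parental vehicle and E2, at 9.18 and 21.2 CPM in clone 1 and at 9.36 and 23.9 CPM in clone 2. Both clones were below the parental line in vehicle and above it under E2, and the difference passed (1.19 ± 0.24, adjusted p = 8.2e-05). LCN10, a lipocalin, went from 2.52 to 2.78 CPM in parental cells, from 3.52 to 7.37 CPM in clone 1 and from 5.77 to 13.0 CPM in clone 2 (0.98 ± 0.35, adjusted p = 0.036). ZNF717, which has near-identical copies, and TEX19 were higher under E2 in the clones without passing (adjusted p = 0.0862 and 0.154). ALPK2, an alpha-kinase, and PRODH, proline dehydrogenase, were lower under E2 in both clones, by -1.16 and -1.37 for ALPK2 and by -1.05 and -1.21 for PRODH, and did not pass (adjusted p = 0.0631 and 0.118).

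Of 18 measured genes for secreted and surface products of the endometrial epithelium, 11 moved less in both clones (61.1%), against 69.3% of all genes. In this list 3 passed as higher in the clones and 2 as lower, beside 8.9% and 6.92% of all tested genes. None passed with the trends removed, beside 2.95% and 2.66%. MUC16, the mucin that carries the CA125 epitope, went from 8.20 to 29.3 CPM in parental cells, from 25.0 to 48.5 CPM in clone 1 and from 51.4 to 71.4 CPM in clone 2 (-1.13 ± 0.23, adjusted p = 7.48e-05). Clone 1 in vehicle lay below the parental E2 level and the other 3 knockout libraries above it. MUC1 was lost, with ratios of 1.01, 0.19 and 0.02 (adjusted p = 0.0332). CXCL14 went from 6.86 to 2.59 CPM in parental cells, from 5.11 to 4.05 CPM in clone 1 and from 2.08 to 3.66 CPM in clone 2 (1.58 ± 0.36, adjusted p = 0.000479). Without the trends the adjusted p-values were 0.0554 for MUC16, 0.418 for MUC1 and 0.0591 for CXCL14.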

How the data were processed

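RNA was measured in 6 Ishikawa libraries. The submitters' processing notes name hg19, HISAT2, SAMtools, Subread and DESeq2 without versions, and the strand setting of the counting is not given in the sources used here. The authors deposited raw read counts per gene, which were used, and a normalized table, which was not. Of 26364 genes, 5767 had no count. Scaling was by TMM on the 15611 genes kept by filterByExpr. Log2 ratios used a prior count of 2, and library totals of 28037392 to 36829479 set the counting precision. The interaction was tested in edgeR 4.0.16 (limma 3.58.1, R 4.3.3) over all 6 libraries without a block. The alternatives were the line as block, DESeq2 1.42.0, limma-voom, other scalings and filters, leaving out a clone, and removal of GC and length trends (GENCODE v29 values for 92.9% of genes). The code was tested on simulated counts of 15611 genes with a set spread, with 100 genes changed by 1 log2 and 100 by 2. The unblocked fit recovered 0% of both, so its 0 calls do not show that differences are absent. The blocked fit recovered 61% and 99%, with 27 false calls. The simulated counts had the same spread for all genes and no difference in the E2 effect outside the changed genes. They do not cover a shift of the single parental vehicle library, so these rates need not hold for the calls made here.

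Vehicle and E2 libraries with the same number come from the same clone, per the labels. The difference between the clones in vehicle and that under E2 correlated across genes with r = 0.626 over all 15611 tested genes and 0.739 over 12367, as a description. Nothing in the labels says that libraries came from separate cultures, so p-values refer to the spread among these libraries, shared in part across genes.

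Genes and lists were chosen with earlier results of these data known. Named genes were up to 6 per direction among lost genes (at least 30 counts in the higher parental library, by mean difference), kept genes (by the smallest change of the 3 lines) and gained genes, up to 4 per list by mean difference, and ETV4, ESR1, PGR and GREB1. Some genes that this rule picks are not reported here. Others are given as chosen after their values were seen. Coordinates are of GRCh38 promoters only, since the counts are on hg19.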

Additional observations from a re-analysis of the deposited data

Results flagged for a closer look

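Among the 80 genes named, 7 moved in one direction under E2 in the parental line and in the opposite direction in both clones, against 12.5% of the 12367 genes at 2 CPM or more. This opposite movement was not tested as such, because the parental line has 1 library per treatment. The mean clone-minus-parental differences (log2) were 5.01 for RPL39, 3.41 for RPL13AP3, 2.20 for RPL41, 1.33 for RPL26, 1.23 for COX7B, 1.20 for NDUFB5 and 1.52 for CXCR4. CXCR4 was the one whose clones were alike in both treatments, with ratios of 0.30 in each clone against -1.22 in the parental line.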

How the results depend on the processing

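The count of interaction calls went from 0 to 2470 with the line as block, to 875 with the block and the GC and length trends removed, and to 26 with DESeq2. It stayed at 0 under the other 5 settings run. The blocked fit uses the pairing of libraries by clone. Leaving out a clone leaves no residual degrees of freedom, so no count was made.

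The 469 lost, 151 kept and 6 gained genes became 1312, 533 and 26 at a 1.5-fold threshold with a limit of little change of 0.25, 21, 60 and 0 at 3-fold, 133 lost and 2 gained with that limit alone, and 877 lost and 10 gained with 0.75. A minimum of 10 CPM gave 78 kept and 1 gained, and removing the trends gave 189 lost. Without either clone in turn the ranges were 540 to 830 lost, 208 to 233 kept and 19 to 53 gained, since 1 clone then had to meet the rule. The share of lost genes with the larger difference in vehicle (85.7%) was 89.5% with total counts, 89.1% at 10 CPM and 74.6% to 90.5% without a clone. The 20 genes differing under E2 only became 9 at 10 CPM, 12 with trends removed and 61 to 122 without a clone. The 397 differing in vehicle only became 234 with trends removed and 533 to 863 without a clone. The last 2 results, and the alternatives of all 3, were chosen after seeing the data.

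Single-gene differences that turned sign without knockout replicate 1 (value without replicate 2 second) were PGR (0.146, -1.1), EGR3 (0.135, -0.418), ALPI (0.495, -1.269), ALPP (0.6, -1.303), ALPPL2 (0.293, -0.516), DHRS3 (0.493, -0.863), IQSEC3 (0.125, -0.26) and BMF (-0.25, 0.88). Those that turned without replicate 2 (value without replicate 1 second) were ADGRF1 (0.089, -0.29) and PLAT (0.081, -0.154). With the trends removed they were ABCA3 (0.195, blocked 0.162), ALPPL2 (0.04), IQSEC3 (0.476, blocked 0.479) and ADGRF1 (0.128, blocked 0.106). The cause was not tested. Counts under 1 CPM in vehicle, as for ALPI and ALPP, limit the precision of their ratios.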
